A study of Mus musculus with 27 samples.

Results

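Liver was compared with spleen, a pair of organs that remove particles and glycoproteins from the blood, on an array of glycan-related and immune genes. The comparison used 6 of the 27 arrays of the series, 3 of liver and 3 of spleen, chosen by their tissue labels. Both groups came from wild-type male mice of the inbred strain C57BL/6 at 6 to 8 weeks of age, and their total RNA, labelled with biotin, was read on a custom Affymetrix array of 1 colour. The other 21 arrays, 3 each of bone marrow, brain, kidney, lung, lymph node, testis and thymus, were used to estimate the spread between arrays and to place both organs among the tissues. A single value was kept for each of 573 mouse genes, from the probe set with the highest mean over all arrays. The values are the authors' intensities in linear units, and each difference is liver minus spleen on the log2 scale with its standard error. Nothing in the labels ties the arrays of a tissue to separate animals, so p-values measure only the spread between these arrays, which may be technical, and the small number of arrays sets the precision. In whole tissue, fewer cells of a type and less RNA per cell cannot be told apart.

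Hepatocytes make most plasma glycoproteins and take aged ones back up through lectin receptors that recognise exposed sugars, while Kupffer cells, the macrophages of liver, bind particles from the portal blood. The spleen filters blood through macrophages of its red pulp and marginal zone and also holds B cell follicles and T cell zones, which chemokines and adhesion molecules keep in place. C-type lectins and Siglecs, the receptors that read glycans, are expressed by different cells in the 2 organs, and the supply of nucleotide sugars sets what glycosyltransferases can build.

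The labels were checked against marker genes. Of 9 hepatocyte markers on the list, 5 were measured, and 3 of these (Asgr2, Mbl1 and Mbl2) were called higher in liver. The summed intensity of all 5 ranged from 7936 to 11453 on liver arrays and from 1406 to 1484 on spleen arrays. All 4 measured B cell markers (Cd22, Cd72, Cxcr5 and Fcer2a) were lower in liver, with sums of 2362 to 2792 in liver and 8450 to 8864 in spleen. Cd22 was the brightest of them, with means of 2086 in liver and 5423 in spleen. Its probe set also read 4318 in brain and 3404 in testis, so these sums may hold signal from other sources than B cells. Both measured T cell markers were lower in liver too, with sums of 496.0 to 574 in liver and 2457 to 3076 in spleen. Across genes, the log2 values of arrays of the same organ correlated at 0.965 to 0.983, and those of a liver with a spleen array at 0.526 to 0.570. Array medians over all probe sets lay between 227.9 and 237.1. Human probe sets, which share the array and give a rough level of cross-species signal, had a median of 206.4 and a 95th percentile of 610.5 on these 6 arrays, and mouse genes had a median of 301.3. Where 1 organ lies at or below the human median, a fold is a ratio of signals and not of transcripts. This held in spleen for 11 of the genes called higher and in liver for 42 of the genes called lower.

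Liver and spleen differed in 117 of 573 genes, or 20.4% of those tested. Called genes had an adjusted p under 0.05 by limma and a difference of at least 1 on the log2 scale. In liver 31 genes were higher, 5.41% of those tested, and 86 were lower, 15% of those tested. The differences reached at least 4-fold in 13 of the higher and 39 of the lower genes. The arrays of the 2 organs did not overlap in 354 genes (61.8% of all), with liver above spleen in 156 (27.2%) and below it in 198 (34.6%), and all 31 higher and 86 lower genes were among them. A further 180 genes had an adjusted p under the threshold with a difference smaller than 1. The median difference over all genes was -0.03 and moved to 0.17 with quantile normalization and to 0.15 with median centring. With quantile normalization 44 genes were higher and 64 lower, so that the share of calls that were higher was 40.7%, against 26.5% with the values as deposited. All 31 higher genes and 64 of the lower genes kept their calls there, and none changed direction.

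**Figure D1:**
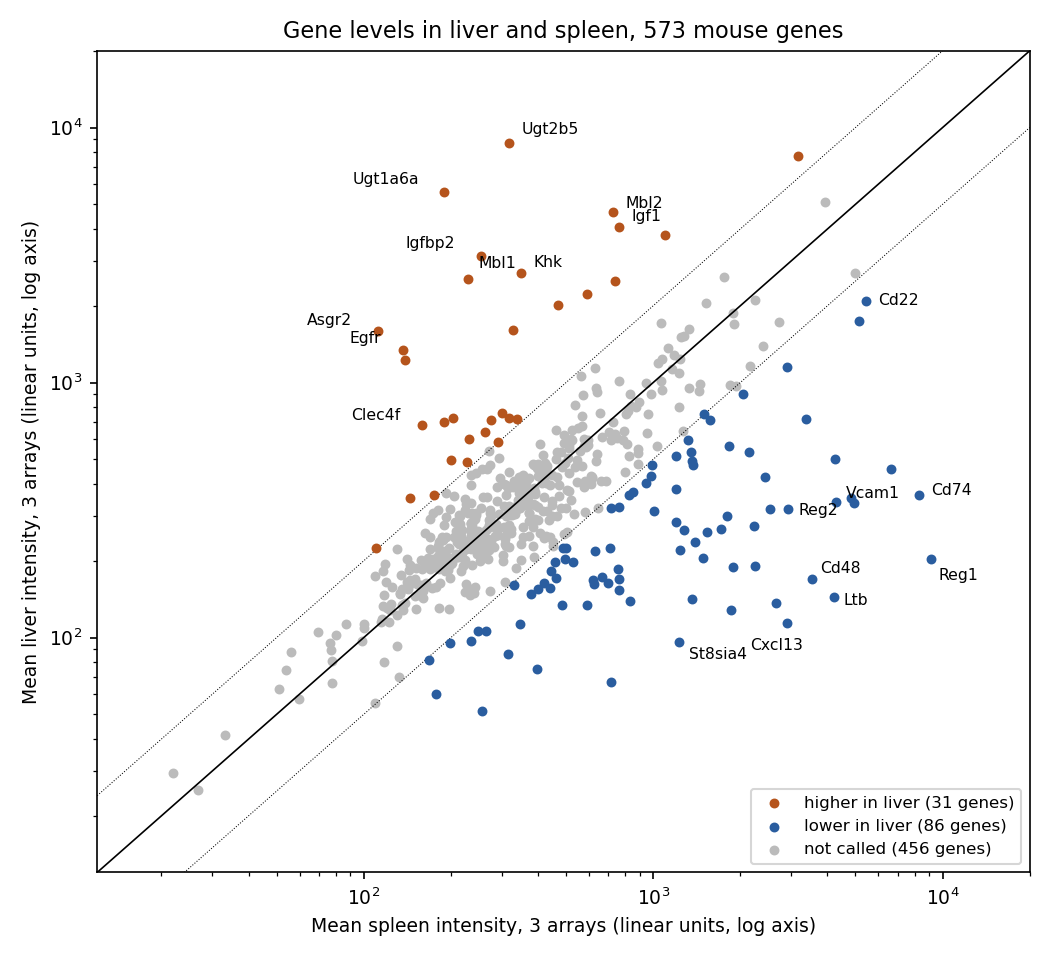
Mean intensity of 573 mouse genes in liver (vertical axis) and spleen (horizontal axis), each the mean of 3 arrays in linear units on log axes. The solid line marks equal levels and the dotted lines a difference of 1 on the log2 scale. The 31 genes higher in liver are orange, the 86 lower ones blue and the 456 not called grey. The blue points reach farther along the spleen axis at low liver levels, with Reg1, Cd74 and Ltb at the edge.

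Lectins that take up or opsonise glycoproteins were split between the organs. Of 15 measured endocytic and cell surface lectin receptors, 2 were higher in liver, 6 were lower and 7 were not called, with a median difference of -0.39. Over all 573 genes 5.41% were higher and 15% lower. With quantile normalization 4 of the 6 stayed lower, since Cd209b (-0.998) and Mrc1 (-0.97) fell under the threshold of size. Asgr2 encodes a subunit of the asialoglycoprotein receptor, by which hepatocytes take up glycoproteins with exposed galactose. It read 1657, 1319 and 1785 in liver and 117, 104 and 114 in spleen. The lowest liver array was far above the highest spleen array, and the difference was 3.82 ± 0.26 (SE), or 14.1-fold (limma adjusted p = 7.53e-12). Clec4f, a galactose-binding receptor of mouse Kupffer cells, read 704, 647 and 703 in liver and 168, 151 and 156 in spleen. Its groups did not overlap, and it was 4.32-fold higher in liver (2.11 ± 0.11, limma adjusted p = 2.35e-14). Clec4f was the 1 measured gene of 5 Kupffer cell markers on the list, so the label rests there on a single gene.

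Most of the lower lectin receptors are known from myeloid cells. Clec4a2, an inhibitory receptor of myeloid cells, read 88.3, 71.7 and 41.0 in liver and 946, 701 and 504 in spleen, and was 10.9-fold lower in liver (-3.44 ± 0.42, limma adjusted p = 1.78e-07). Its other probe set gave a difference of -1.54. Clec7a, the beta-glucan receptor dectin-1, read 204, 196 and 157 in liver and 703, 908 and 655 in spleen, a 4.05-fold lower level (-2.02 ± 0.29). Mrc1, the mannose receptor of macrophages and sinusoidal endothelium, read 610.4, 428 and 439.7 in liver and 1352, 1343 and 1387 in spleen. It was 2.80-fold lower in liver (-1.48 ± 0.29, limma adjusted p = 0.000111), although liver ranked 4 of 9 tissues for this gene, with spleen highest. Cd209b, the SIGN-R1 lectin of marginal zone macrophages that binds microbial polysaccharides, read 215, 189 and 189 in liver and 573, 432 and 370.2 in spleen. The highest liver array stayed under the lowest spleen array, a 2.29-fold lower level (-1.19 ± 0.14). Lymph node was the highest tissue for Cd209b, with a mean of 3743 against 458.5 in spleen. Thbd, the anticoagulant receptor thrombomodulin, was 2.70-fold lower (-1.43 ± 0.14), and Clec5a, a myeloid receptor that signals through an adaptor, 2.44-fold lower (-1.29 ± 0.10).

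The relatives of Cd209b on the array had differences of -0.06 (Cd209c), -0.14 (Cd209e), -0.18 (Cd209d) and -0.26 (Cd209a), none of them called. Clec10a, a galactose-type lectin of macrophages and dendritic cells, read 363, 331 and 338 in liver and 456, 437 and 452 in spleen, without overlap but with a difference of -0.39 ± 0.11 (limma adjusted p = 0.00374). Clec4e, a receptor for mycobacterial glycolipid, had a difference of 0.13 ± 0.17. Ly75, the dendritic cell receptor DEC-205, lay just outside the threshold of size at -0.98 ± 0.17, at levels of 47.9 to 61.8 in liver and 93.7 to 117 in spleen. It was called with array weights (-1.01) and without liver array 3 (-1.06) or spleen array 1 (-1.08).

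Soluble lectins differed in both directions. Of 6 measured, the mannose-binding lectins Mbl1 and Mbl2, plasma proteins that start the lectin pathway of complement, were higher in liver, and Reg1, Reg2 and Reg3b were lower. Among all genes 5.41% were higher and 15% lower. Mbl1 read 2694, 2738 and 2233 in liver and 219.6, 232 and 239 in spleen. The 3 spleen arrays stood close to each other and to the human median, and the difference was 3.47 ± 0.10, or 11.1-fold (limma adjusted p = 1.87e-18). Mbl2 read 6384, 3248 and 4336 in liver and 694, 722 and 755 in spleen, a 6.20-fold higher level (2.63 ± 0.14). The liver arrays of Mbl2 spread more widely than those of Mbl1, with liver array 1 highest. Sftpd, the surfactant collectin of lung, was not called (-0.23 ± 0.14).

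Reg1, Reg2 and Reg3b encode secreted C-type lectin-like proteins best known from pancreatic acinar cells and gut epithelium. Reg1 read 214, 198 and 197 in liver and 6658, 9125 and 11464 in spleen, the largest difference of all 573 genes in size (-5.45 ± 0.38, 43.7-fold lower in liver, limma adjusted p = 8.62e-12). Reg2 read 362, 297 and 301 in liver and 583, 4194 and 4009 in spleen, and Reg3b 154, 142 and 122 in liver and 167, 1198 and 1138 in spleen. For these 2 genes spleen array 1 stood near the liver arrays and the other spleen arrays far above them. Reg2 was 6.72-fold lower in liver over all arrays and 12.9-fold lower without spleen array 1, and Reg3b 4.39-fold and 8.40-fold lower. Reg1 and Reg2 are also the 2 measured genes of 8 exocrine pancreas markers on the list. The sum of both was 496 to 575 in liver and 7241 to 15473 in spleen. The part of pancreatic tissue in these values was not tested.

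**Figure D2:**
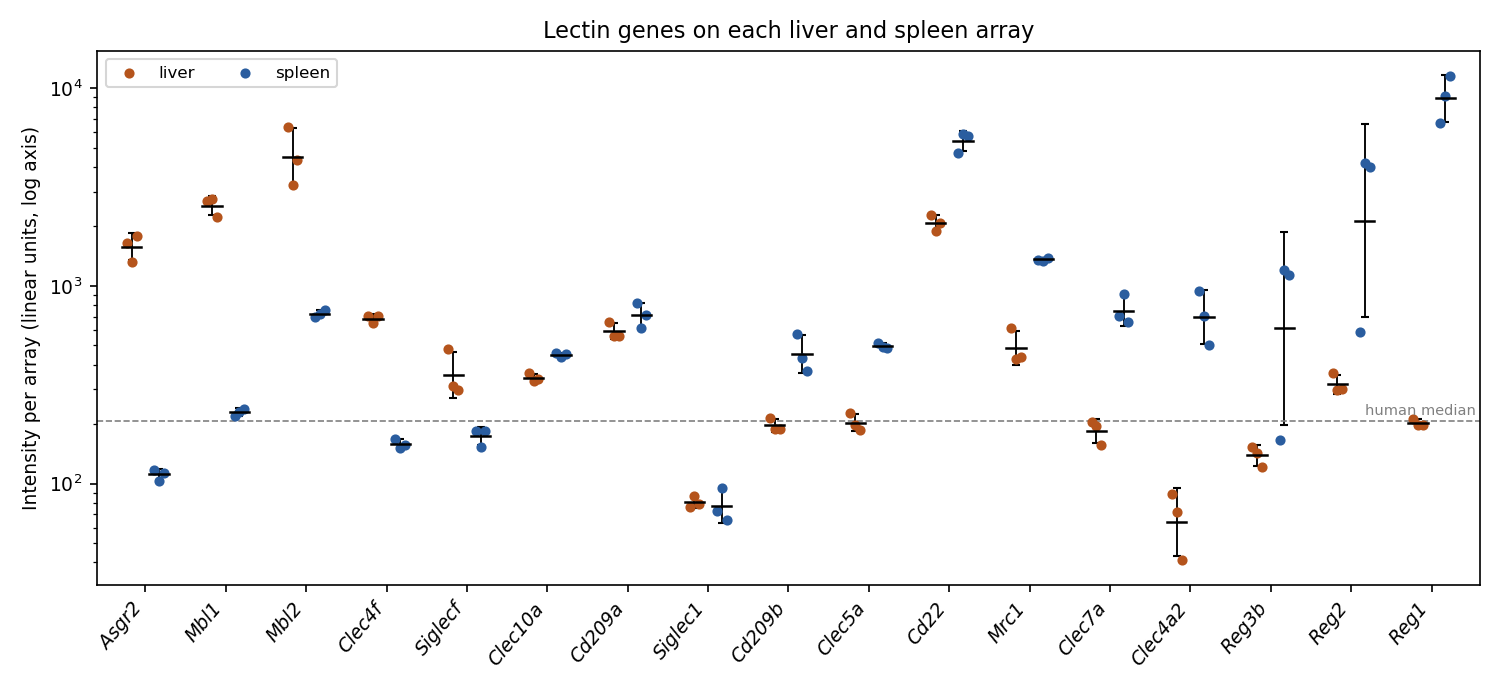
Intensity of 17 lectin genes on each array, in linear units on a log axis, with liver (orange) left of spleen (blue) for each gene. Horizontal bars are means of the log2 values of 3 arrays and vertical bars their SD on that scale, and the dashed line is the median of the human probe sets (206.4). Asgr2, Mbl1, Mbl2 and Clec4f stand higher in liver without overlap, and Reg2 and Reg3b have 1 spleen array near the liver level.

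Siglecs, receptors for sialic acid, were measured for 6 genes, of which 1 was higher in liver, 1 lower and 4 not called. The shares over all genes were 5.41% higher and 15% lower. Siglecf, known from eosinophils, read 480.2, 311 and 298 in liver and 184, 154 and 185 in spleen (2.04-fold higher, 1.03 ± 0.18, limma adjusted p = 3.89e-05). Liver array 1 stood above the other liver arrays, and without it the difference was 0.81 and not called. The call was also lost without spleen array 2 (0.94), with an offset of 16 (0.97) and with array weights (0.97). Cd22, the inhibitory Siglec of B cells, read 2286, 1896 and 2078 in liver and 4704, 5860.0 and 5704 in spleen, 2.59-fold lower in liver (-1.38 ± 0.20, limma adjusted p = 2.98e-06). Its other probe set, at lower intensity, gave -3.61, the mean of both gave -2.49, and with quantile normalization the chosen probe set gave -0.81 and was not called. The chosen probe set also had means of 4318 in brain, 3404 in testis and 2897 in kidney. Siglec1, the sialoadhesin of marginal zone and other tissue macrophages, read 76.5, 86.5 and 79.4 in liver and 72.9, 95.6 and 65.4 in spleen. These levels lay under the human median in both organs and overlapped (0.07 ± 0.17, 95% interval -0.28 to 0.42). Cd33 (-0.62), Siglece (-0.27) and Mag (0.16) stayed under the threshold of size. The 4 measured galectins were not called, with differences of -0.47 to 0.25.

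Genes of glucuronidation and several that supply sugar donors were higher in liver. Ugt2b5 and Ugt1a6a encode UDP-glucuronosyltransferases, which attach glucuronic acid to bilirubin, steroids and drugs. Ugt2b5 read 8518, 6749.5 and 10882 in liver and 696, 136 and 124 in spleen. It had the largest difference among the higher genes, 5.23 ± 0.38 or 37.6-fold (limma adjusted p = 1.6e-11), and 65.9-fold without spleen array 1, which stood above the other spleen arrays. The hepatocyte genes Asgr2, Mbl1 and Mbl2 read 117, 219.6 and 694 on that array. Ugt1a6a read 6842, 4278 and 5582 in liver and 204, 176 and 189.9 in spleen (28.8-fold higher, 4.85 ± 0.24, limma adjusted p = 1.26e-14). Probe sets of these families can bind related transcripts, so the values may hold more than 1 family member. The third gene measured, Ugt2a1, was not called (0.76).

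Along the path that feeds these enzymes, Pgm1, Ugp2 and Ugdh were higher in liver in turn. Pgm1, a phosphoglucomutase that makes glucose 1-phosphate, read 1773, 1333 and 1699.6 in liver and 379.8, 316 and 288 in spleen (4.88-fold higher, 2.29 ± 0.19). Ugp2, which makes UDP-glucose, read 4604, 2981 and 3784 in liver and 1232, 1039.9 and 1024 in spleen (3.41-fold higher, 1.77 ± 0.18). Ugdh, which oxidises UDP-glucose to UDP-glucuronic acid, read 2897, 1566 and 2212 in liver and 683, 534 and 548 in spleen (3.69-fold higher, 1.88 ± 0.20, limma adjusted p = 1.35e-08). In each of the 3 genes liver array 2 was lowest and spleen array 1 highest of its group, and the organs did not overlap. Among all genes 5.41% were higher and 15% lower. Of 26 measured genes of nucleotide sugar synthesis and transport, 5 were higher, 2 lower and 19 not called, with a median difference of 0.10. The higher ones beside Ugp2 and Ugdh were Papss2, which makes the sulfate donor PAPS (3.56-fold), Galt, which converts galactose 1-phosphate (2.55-fold), and Gne, the entry enzyme of sialic acid synthesis. Gne, named after its value was seen, read 639.5, 620.0 and 665 in liver and 293, 242 and 251 in spleen (2.46-fold higher, 1.30 ± 0.11).

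The 2 lower genes of this list phosphorylate sugars. Nagk, which salvages N-acetylglucosamine, was 2.18-fold lower (-1.12 ± 0.18). Hk1, the hexokinase of most tissues, read 179, 186 and 183 in liver and 477, 425 and 434 in spleen (2.44-fold lower, -1.28 ± 0.50, limma adjusted p = 0.0368). The Hk1 groups did not overlap, and their SD in linear units was 3.36 in liver and 27.9 in spleen. Its SE was the widest quoted here, but the fit pools the spread within every tissue over all 27 arrays. The SE therefore does not show a wide spread in liver or spleen. With that SE the call was lost when any 1 of the 6 arrays was left out, with limma adjusted p of 0.0646 to 0.0848. The other Hk1 probe set gave -2.32 (limma adjusted p = 0.00461 over all mouse probe sets), with means of 63.1 in liver and 312 in spleen. With quantile normalization 7 members of the list were higher and 1 lower, and with median centring 6 were higher and none lower. Khk, the fructokinase of liver and kidney, read 3595, 1803 and 2683 in liver and 392, 353 and 300.0 in spleen (7.49-fold higher, 2.90 ± 0.17). Msmo1, an enzyme of cholesterol synthesis, was 4.19-fold higher (2.07 ± 0.23).

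**Figure D3:**
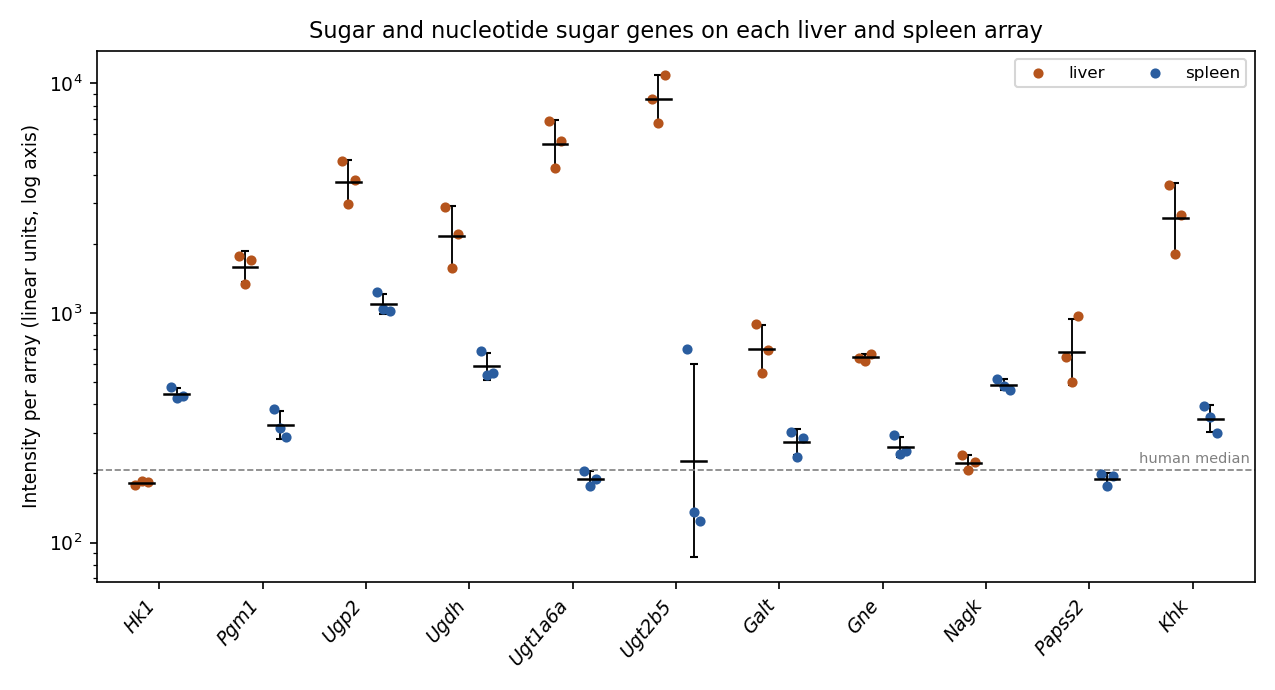
Intensity of 11 genes of sugar phosphorylation, nucleotide sugar synthesis and glucuronidation on each array, in linear units on a log axis, with liver (orange) left of spleen (blue). Horizontal bars are means of the log2 values of 3 arrays, vertical bars their SD on that scale, and the dashed line is the median of the human probe sets (206.4). Hk1 and Nagk are lower in liver and the other 9 genes higher, and spleen array 1 of Ugt2b5 (696) stands apart from the others of its group.

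Most glycosyltransferases differed by less than the threshold. Of 18 measured sialyltransferases, 1 was higher in liver, 2 were lower and 15 were not called. In the same comparison 5.41% of all genes were higher and 15% lower. St8sia4, a polysialyltransferase, read 105, 102 and 81.0 in liver and 1278, 1198 and 1199.6 in spleen. The liver level was below the human median, and the difference was -3.68 ± 0.18, or 12.8-fold (limma adjusted p = 1.44e-14). St3gal6, which sialylates terminal galactose and helps to make selectin ligands, was 2.66-fold lower (-1.41 ± 0.16), and St3gal3, with the same linkage, 2.13-fold higher (1.09 ± 0.11, and 0.99 without spleen array 1, which ended its call). St6gal1, named after its values were seen, makes the alpha2,6-linked sialic acid that Cd22 binds and that many plasma glycoproteins carry. It read 537, 466 and 431 in liver and 867, 859.9 and 932 in spleen, without overlap and just under the threshold of size (-0.90 ± 0.14, limma adjusted p = 8.77e-06). Its other probe sets disagree on the direction: 1 gave -0.62, and the other gave 0.79, with means of 608 in liver and 351 in spleen.

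Enzymes that build and extend chains had lower calls at shares near the 15% of all genes. Of 21 galactosyl- and N-acetylglucosaminyltransferases of chain elongation, 4 were lower and 17 not called: B3gnt5 (2.46-fold), which starts lacto-series glycolipids, B3gnt2 (2.29-fold), which extends poly-N-acetyllactosamine, B4galnt1 (2.19-fold), the GM2 and GD2 synthase, and B4galt4 (2.08-fold, not called without spleen array 1 at -0.99). With quantile normalization 1 of this list was lower and 1 higher. Of 17 genes of glycosphingolipid synthesis 3 were lower, B3gnt5, B4galnt1 and Ugcg, the glucosylceramide synthase (2.29-fold), and with quantile normalization 1 was. Galnt3, which starts mucin O-glycans, was the 1 lower gene of 10 on its list (2.59-fold, -1.37 ± 0.17). Fut8, the core fucosyltransferase (-1.03 ± 0.17), was called among 10 fucosyltransferases, and Mgat1, which opens the way to complex N-glycans (-1.001 ± 0.12), among 7 genes of N-glycan processing. Both calls sat at the threshold, and both were lost with quantile normalization (-0.90 and -0.43) and with median centring. Fut8 also lost its call without spleen array 1 or 3, and Mgat1 without liver array 1 or 3 or spleen array 1 or 2. None of the 6 genes of the N-glycan precursor and the oligosaccharyltransferase was called, with differences of -0.57 to 0.22.

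Some genes differed little. Among genes above the median level in each organ, the 6 smallest differences were those of Gfra3, Rpn1, St6galnac1, Hs6st3, Chst11 and Mgat5b. Rpn1, a subunit of the oligosaccharyltransferase, read 1279.5, 1239.5 and 1193 in liver and 1128, 1296 and 1298 in spleen, with a 95% interval of the difference of -0.30 to 0.29. Hs6st3, a heparan sulfate 6-O-sulfotransferase, read 510.1, 503 and 500.3 in liver and 504, 485 and 529.5 in spleen, with an interval of -0.20 to 0.19. For both genes the groups overlapped, and the intervals leave out a change of the size used for calls.

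Lysosomal and matrix glycan genes gave a mixed picture. Of 22 genes of lysosomal glycan degradation 2 were lower and 20 not called, where 5.41% of all genes were higher and 15% lower. Hexa, a chain of beta-hexosaminidase, was 2.34-fold lower (-1.23 ± 0.17), and Gm2a, the GM2 activator, read 803, 982 and 929 in liver and 1431, 2513 and 2196 in spleen (2.21-fold lower, -1.14 ± 0.28). Neither was called with quantile normalization (-0.78 and -0.58), nor was Gm2a without spleen array 2 (-0.98). Of 27 genes of glycosaminoglycan synthesis and sulfation 2 were higher, Chst5, a sulfotransferase (2.52-fold), and Ext1, a heparan sulfate polymerase subunit (2.05-fold), and Hs6st2 was lower (2.90-fold). The Ext1 call was lost without liver array 2 (0.997), without spleen array 3 (0.91) and with an offset of 16 (0.93). With quantile normalization 3 genes of this list were higher and 1 lower. Of 23 proteoglycan core proteins 1 was higher, 4 lower and 18 not called. Sdc1, the syndecan by which hepatocytes clear remnant lipoproteins, read 563, 432 and 468 in liver and 201, 223 and 257 in spleen (2.15-fold higher, 1.10 ± 0.11), and was not called without liver array 1 (0.99). Srgn, the granule proteoglycan serglycin of blood cells, read 367, 322 and 323 in liver and 5192, 4645 and 5019 in spleen (14.7-fold lower, -3.88 ± 0.21). Cd44, the hyaluronan receptor, was 8.43-fold lower, the small proteoglycan Fmod 3.59-fold and Bgn 2.54-fold. Cd44 was 5.44-fold lower with quantile normalization, Bgn was not called there (-0.79), and Dcn, not called as deposited (0.56), was called higher there (1.13).

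Several growth factor genes known from liver were higher there. Igf1, the insulin-like growth factor that liver releases into blood, read 4359.9, 3598 and 4212 in liver and 928, 762 and 604 in spleen (5.37-fold higher, 2.42 ± 0.19, limma adjusted p = 1.09e-10). Igfbp2, a carrier of it, read 3002, 3229 and 3145 in liver and 276, 249 and 235 in spleen (12.4-fold higher, 3.63 ± 0.11). Egfr, the epidermal growth factor receptor, read 1035, 1659 and 1344 in liver and 127, 140.5 and 144 in spleen (9.65-fold higher, 3.27 ± 0.12). In all 3 genes the liver arrays stood far above the spleen arrays, and the spleen values of Egfr lay below the human median. Lifr, the leukemia inhibitory factor receptor, was 8.44-fold higher (3.08 ± 0.19), while its other probe set gave 0.01, with means of 148 in liver and 147 in spleen, and the mean of both gave 2.92-fold. Of the 22 genes of this axis 4 were higher, 2 lower (Osmr, the oncostatin M receptor, and Igfbp5) and 16 not called, with a median of 0.36, and with quantile normalization 5 were higher and 2 lower. As deposited, 5.41% of all genes were higher and 15% lower. Igfbp1 (0.83) and Fgfr4 (0.81), both on the hepatocyte list, stayed under the threshold of size with adjusted p of 3.89e-05 and 9.3e-07. Mst1, a plasma factor made by hepatocytes that acts on macrophages, was 3.57-fold higher (1.83 ± 0.09). Fgf1 (1.01 ± 0.12) was the 1 gene called among 48 ligands and receptors of the FGF and Wnt families. That call was lost with an offset of 16 (0.97) and without liver array 2 (0.98), spleen array 1 (0.98) or spleen array 3 (0.99). Higher among 30 genes on the list of the TGF-beta superfamily were Bmp1 (2.53-fold), which encodes a protease and not a ligand, and Amh (2.27-fold).

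Tgfb1, the member of that superfamily best known from immune regulation, was the 1 lower. It read 152, 136 and 137 in liver and 1177, 1606 and 1318 in spleen (9.59-fold lower, -3.26 ± 0.26, limma adjusted p = 1.53e-10). Ltb, lymphotoxin beta, which lymphocytes use to instruct stromal cells, read 141, 153 and 139.7 in liver and 4983, 3973 and 3641 in spleen (28.8-fold lower, -4.85 ± 0.16, limma adjusted p = 5.35e-18). Its receptor Ltbr, found on stromal and parenchymal cells, went the other way, with 657, 578 and 560.0 in liver and 235, 273 and 186 in spleen (2.61-fold higher, 1.38 ± 0.18). Ligand and receptor were each without overlap between the organs. Cxcl13, the chemokine of B cell follicles, read 115, 121 and 107 in liver and 3382, 2673 and 2659.7 in spleen (25.3-fold lower, -4.66 ± 0.15). Its receptor Cxcr5 was 4.44-fold lower (-2.15 ± 0.11). Ccl21b, a chemokine of T cell zones whose near-identical copies a probe set may not separate, was 13.5-fold lower, and its receptor Ccr7 4.84-fold lower.

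Of 29 chemokines 1 was higher in liver, Ccl9 (2.42-fold), 7 were lower and 21 not called, and of 16 chemokine receptors 5 were lower and 11 not called, with the same counts under quantile normalization. Among all genes 5.41% were higher and 15% lower with the values as deposited. Ccl5, which attracts T cells, read 188, 194 and 190.4 in liver and 2239, 2610.1 and 1905 in spleen (11.7-fold lower), while its other probe set gave -0.66. Pf4, the platelet factor stored by megakaryocytes, read 205, 186 and 177 in liver and 2468, 1800.0 and 1412 in spleen (9.76-fold lower, -3.29 ± 0.20), while its other probe set gave 0.13, with means of 71.4 in liver and 65.6 in spleen. With a gene's probe sets averaged the 2 genes were 4.31-fold and 2.99-fold lower. Cxcl12, which holds blood precursors and B cells in place, read 1816, 1705 and 1726 in liver and 5526, 4939.7 and 4920.4 in spleen (2.93-fold lower, -1.55 ± 0.20).

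With the values as deposited, adhesion molecules had the most called genes of the 25 lists, which differ in size, and each of these genes was lower. Of 28 selectins, integrins and adhesion molecules none was higher, 11 were lower and 17 not called, with a median of -0.58, and 9 were lower with quantile normalization. The shares over all genes were 5.41% higher and 15% lower. Itgb2, the beta2 chain of leukocyte integrins, read 147, 139.8 and 124 in liver and 2900.2, 2655 and 2433 in spleen (19.5-fold lower, -4.28 ± 0.15, limma adjusted p = 3.76e-17). Vcam1, found on splenic stroma and red pulp macrophages, read 328, 341 and 347 in liver and 4711, 3862 and 4259 in spleen. It was 12.6-fold lower (-3.65 ± 0.19), and 8.17-fold lower with quantile normalization. Selplg, the P-selectin ligand, was 7.94-fold lower (-2.99 ± 0.16). Cd74, the invariant chain of MHC class II, read 384, 369.6 and 334 in liver and 7768, 9636 and 7391 in spleen (22.7-fold lower, -4.50 ± 0.20). Cd48, a ligand on lymphocytes, was 20.7-fold lower, and Cd83, a marker of activated dendritic and B cells, 14.6-fold lower. Tmsb10, a thymosin that binds actin, was lower by a like amount (14.6-fold, -3.86 ± 0.18). In these 7 genes the highest liver array was below the lowest spleen array.

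Interleukin and interferon genes were called at about the share of all genes. Of 38 interleukin and interferon genes and receptors none was higher, 8 were lower and 30 not called, where 20.4% of all genes were called and 15% were lower. Their median of -0.03 equals that of all genes, and with quantile normalization 2 were higher and 6 lower. Il7r, the interleukin 7 receptor of T cells and precursors, read 276, 265 and 240.2 in liver and 1720.3, 1196 and 1704 in spleen (5.84-fold lower, -2.55 ± 0.14). Il2rb was 5.59-fold lower and Ifngr1 4.70-fold lower, or 2.90-fold with quantile normalization. Il10ra was 6.41-fold lower (-2.68 ± 0.14) by the chosen probe set, with 268, 296 and 239.5 in liver and 1579, 1639.7 and 1932 in spleen. The other Il10ra probe set gave a difference of 0.042, with means of 975 in liver and 881 in spleen, so the 2 probe sets of this gene disagree. Of 28 genes of the TNF family and costimulation 1 was higher, 6 lower and 21 not called, and 4 were lower with quantile normalization. Of 10 C-type lectins of lymphocytes 4 were lower: Fcer2a, the IgE receptor CD23 of B cells (7.93-fold), Cd72, a B cell inhibitory receptor (5.29-fold), Klrd1, the CD94 chain of NK cells (4.96-fold), and Cd69, an activation antigen (2.26-fold). Cd72 read 71.8, 64.1 and 89.6 in liver and 346, 408 and 433 in spleen.

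**Figure D4:**
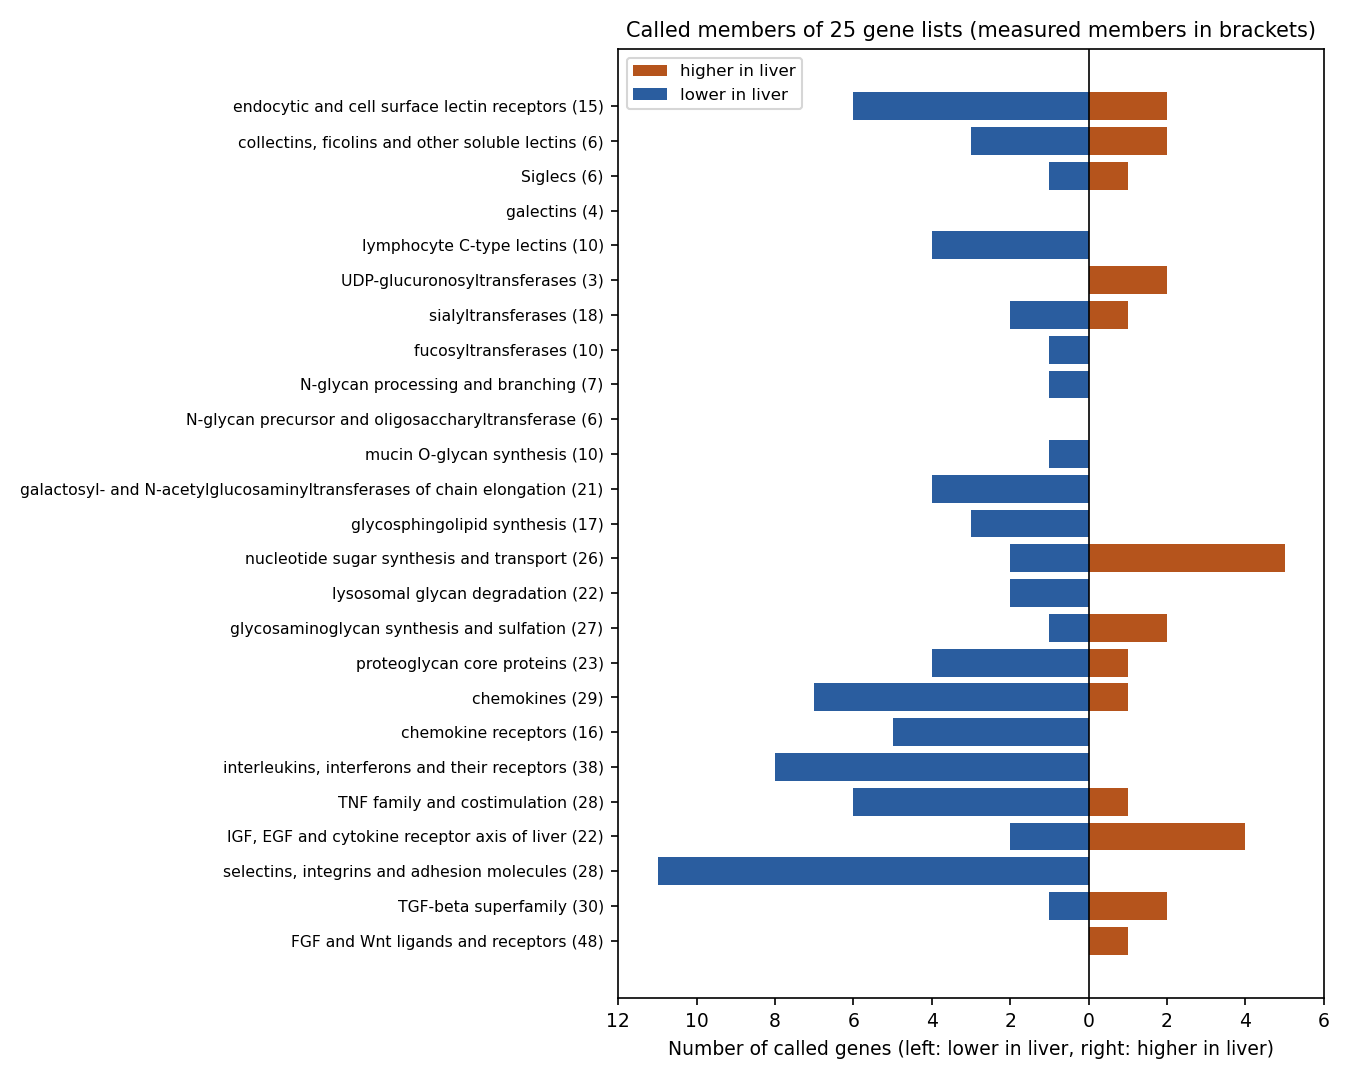
Number of called genes in each of 25 gene lists, with genes lower in liver to the left of 0 (blue) and genes higher in liver to the right (orange), and the number of measured members in brackets. Adhesion molecules have 11 lower and none higher, and nucleotide sugar genes have 5 higher and 2 lower. Lists share members, and they differ in size. Of all 573 genes 5.41% were higher and 15% lower.

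Marker lists of other cells held called genes beside these groups, where 15% of all genes were lower in liver. Of 4 macrophage and monocyte markers 3 were lower in liver (Ccr2, Clec7a and Mrc1). The sums over all 4 were 717 to 946 in liver and 2330 to 2619 in spleen. Of 4 dendritic cell markers 2 were lower (Cd83 and Clec4a2), with sums over all 4 of 888 to 913 in liver and 3726 to 4397 in spleen. Itgax, the CD11c integrin chain on that list, was under the threshold of size by its chosen probe set (-0.97 ± 0.10) and gave -3.48 by its other probe set. Of 7 endothelial markers 3 were lower (Icam2, Pecam1 and Cd34), with sums over all 7 of 1166 to 1345 in liver and 2530 to 3062 in spleen. Of 6 neutrophil markers 2 were lower (Ltf and Clec5a), of 3 NK cell markers 1 (Klrd1), and of 3 platelet markers 1 (Pf4). These tallies depend on the probe set. Csf3r, a neutrophil marker, gave -0.50 by its chosen and -2.25 by its other probe set, and was called with both averaged (-1.37). Klrc1, an NK cell marker, gave -0.01 by its chosen probe set and -1.09 and -0.83 by the others. Pf4 gave 0.13 by its other probe set. Of 5 fibroblast markers 2 were lower (Fmod and Bgn), while Lum (0.79), Dcn (0.56) and Hgf (0.39) stood above 0 and were not called. The median of the list was 0.39, and with quantile normalization Dcn was called (1.13). The 1 measured marker of sinusoidal endothelium, Cd209c, and of erythroid cells, Epor, were not called. Epor gave 0.22 by its chosen and -0.51 by its other probe set. With quantile normalization Mrc1, Cd34, Bgn, Cd22 and the lymphocyte lectin Cd69 (-0.78) were not called. Intensities were floored at 16, so a value above 0 does not show that a marker is expressed. Several markers lay under the human median of 206.4 in liver, as Ccr2 (51.5), Clec4a2 (67.0) and Cd72 (75.2). The part of cell number in the gene groups above was not tested.

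Promoter sequences are shown for 4 genes, Asgr2 and Ugt1a6a among the higher and Ltb and Cd72 among the lower genes. Each was picked with a motif that its window holds and that most windows of the higher or lower genes lacked. The windows run from 250 bases before to 50 bases after the RefSeq start of each gene, on the gene's own strand, in GRCm38.p6. Capitals mark a match to the motif named, on either strand. The Asgr2 window (chr11:70092394-70092693, plus strand) holds the HNF4 letters CAAAGTC. The Ugt1a6a window (chr1:88134559-88134858, plus strand) holds the HNF1 letters GTTAAT on its other strand. The Ltb window (chr17:35194257-35194556, plus strand) holds the NF-kB motif, whose letters on its other strand are those in capitals, and the Cd72 window (chr4:43454577-43454876, minus strand) the PU.1 letters GAGGAAGT on its other strand.
Asgr2: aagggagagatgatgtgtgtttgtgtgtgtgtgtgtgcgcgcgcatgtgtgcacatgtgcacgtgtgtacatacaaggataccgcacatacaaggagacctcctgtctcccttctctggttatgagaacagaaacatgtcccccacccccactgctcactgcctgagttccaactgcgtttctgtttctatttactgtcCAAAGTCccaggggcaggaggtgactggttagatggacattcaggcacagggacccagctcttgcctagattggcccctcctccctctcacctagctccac
Ugt1a6a: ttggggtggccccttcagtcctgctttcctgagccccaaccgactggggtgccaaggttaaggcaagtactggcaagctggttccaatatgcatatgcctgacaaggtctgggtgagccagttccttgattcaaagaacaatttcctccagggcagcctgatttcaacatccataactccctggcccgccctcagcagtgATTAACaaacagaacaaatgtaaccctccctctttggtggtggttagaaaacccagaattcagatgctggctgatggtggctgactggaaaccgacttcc
Ltb: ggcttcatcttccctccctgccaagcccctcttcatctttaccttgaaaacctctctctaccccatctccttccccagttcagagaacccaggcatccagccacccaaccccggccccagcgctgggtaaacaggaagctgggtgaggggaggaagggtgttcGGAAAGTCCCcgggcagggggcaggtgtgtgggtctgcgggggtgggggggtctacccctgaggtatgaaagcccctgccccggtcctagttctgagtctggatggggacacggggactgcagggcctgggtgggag
Cd72: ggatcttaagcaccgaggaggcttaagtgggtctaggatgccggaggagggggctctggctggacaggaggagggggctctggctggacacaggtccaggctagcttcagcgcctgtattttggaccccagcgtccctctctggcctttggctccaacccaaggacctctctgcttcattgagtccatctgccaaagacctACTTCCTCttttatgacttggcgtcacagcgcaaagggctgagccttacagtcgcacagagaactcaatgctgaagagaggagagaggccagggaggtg

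These matches are descriptions and not binding sites. Windows were found for 27 of the 31 higher and 65 of the 86 lower genes, for 444 genes of the array and for 27025 genes in all. GTTAAT occurred in 4 of 27 higher windows (14.8%) and 2 of 65 lower windows (3.08%), against 3.83% of array genes and 8.24% of all genes. CAAAGTC occurred in 4 of 27 higher (14.8%) and 5 of 65 lower windows (7.69%), against 6.08% of array genes and 5% of all. The higher genes with the first motif were Egfr, Khk, Siglecf and Ugt1a6a, and those with the other were Asgr2, Igfbp2, Pgm1 and Siglecf. The FOXA letters TGTTTAC occurred in 1 of 27 higher and 2 of 65 lower windows, against 4.05% of all genes, and GAGGAAGT in 1 and 3, against 3.69%. The NF-kB motif was in 0.174% of all windows and, among the called genes, in Ltb alone. No test was made on these counts.

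Both organs were also placed among the other 7 tissues, whose arrays are shared by these comparisons. Of the 31 genes higher in liver than in spleen, liver was highest of 9 tissues for 26, and spleen was among the lowest 3 for 13. The 5 others peaked in kidney (Papss2, Lamp2 and Fgf1), lung (Ltbr) or bone marrow (Ccl9). Of the 86 lower genes, spleen was the highest for 20 and the second highest for 30. Lymph node was highest for 25, bone marrow for 14, lung for 13 and thymus for 8. Liver was lowest of all 9 tissues for 20 of the 86, among them Tmsb10, Cd83, Selplg, Il7r, Il2rb and Cd22. Liver and spleen gave 117 calls, where liver and lymph node gave 124 and lymph node and spleen 24, the fewest of the 36 tissue pairs. Of these pairs 6 gave more calls than liver and spleen.

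**Figure D5:**
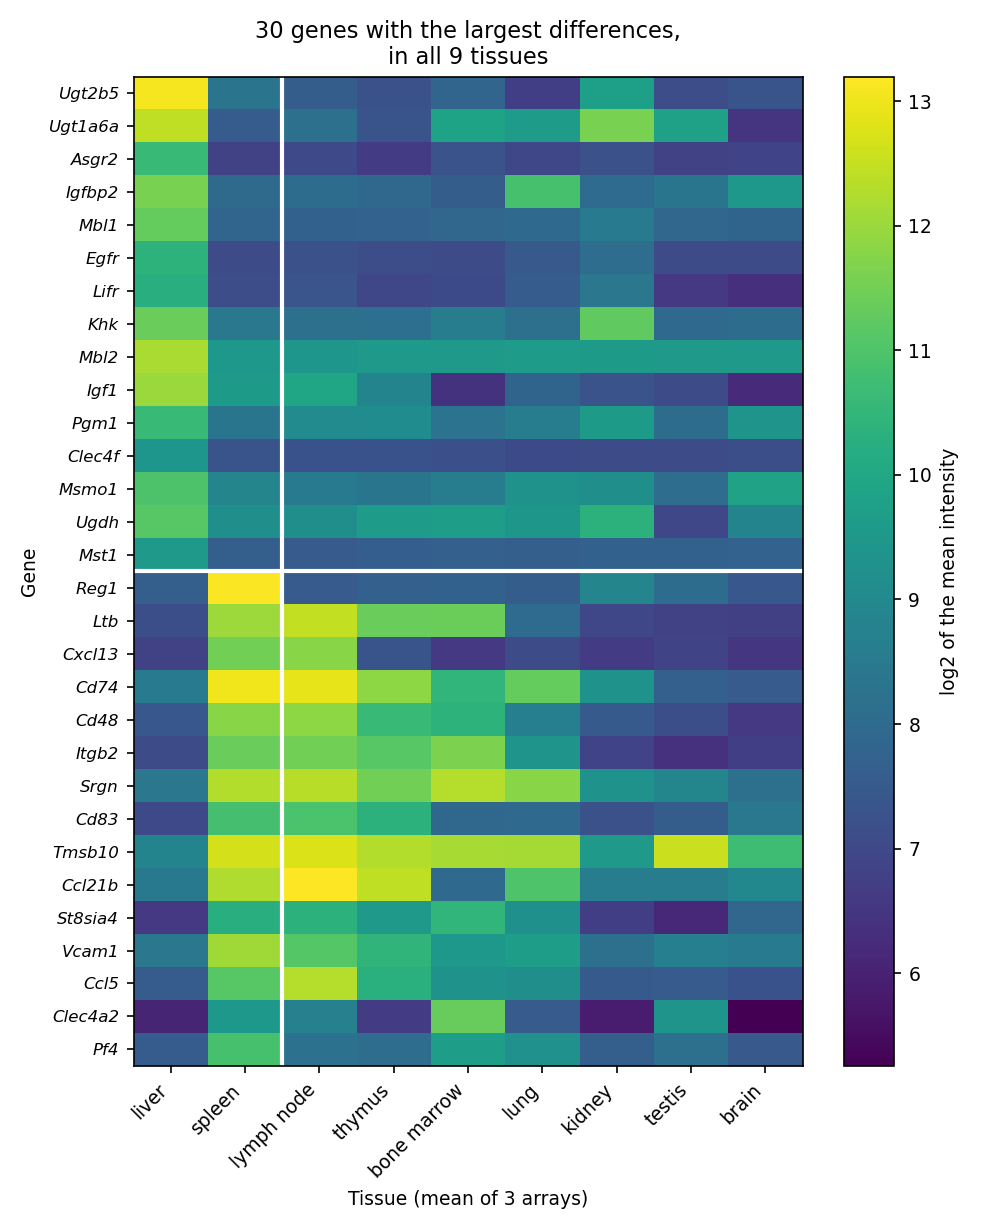
Mean intensity, as log2, of the 15 genes highest (upper block) and the 15 genes lowest (lower block) in liver relative to spleen, in all 9 tissues, each the mean of 3 arrays. The upper block is brightest in the liver column, and Khk and Ugt1a6a are also bright in kidney. In the lower block the spleen and lymph node columns hold most of the brightest cells, and Reg1 is brightest in spleen.

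What liver and spleen shared against the other tissues was small. Set against the mean of the other 7 tissues, liver had 27 higher genes (4.71%) and 46 lower (8.03%), and spleen 52 higher (9.08%) and 6 lower (1.05%). Igf1 and Cxcl12 were higher in both organs (0.349% of genes). Igf1 stood 4.34 ± 0.15 above the other tissues in liver and 1.92 ± 0.15 in spleen, and Cxcl12 1.07 ± 0.15 and 2.62 ± 0.15. These are the genes on which the organs also differed from each other, Igf1 being higher and Cxcl12 lower in liver. Fut9, which completes the Lewis x epitope, and Ugt8a, which makes galactosylceramide, were lower in both organs (0.349%). Fut9 read 24.2 to 26.5 in liver and 20.8, 40.8 and 19.0 in spleen, and Ugt8a 32.2, 32.9 and 23.5 in liver and 20.0, 17.5 and 28.4 in spleen, all far under the human median. Both were highest in kidney, at 451 and 686, and neither was called lower with a floor of 64 intensity units.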

How the data were processed

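The deposited table holds 1 intensity on a linear scale for each of 1813 probe sets on 27 arrays, per the labels from 9 tissues with 3 arrays each. How the authors summarised, background-corrected and scaled them is not given in the sources used here. Platform annotation gave 1 symbol to 1563 probe sets, several to 2 and none to 248. After 22 control probe sets were left out, 702 matched a mouse gene and 839 were human and not tested. Of the 573 mouse genes, 122 had several probe sets, and the probe set brightest on average over the 27 arrays was used. One symbol was updated through RefSeq (GRCm38.p6), which also gave the promoter sequences.

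Intensities under 16 were raised to 16 (2 values), and log2 was taken of the deposited intensities. The fit (limma 3.58.1, R 4.3.3) had a coefficient for each tissue and used all 27 arrays (18 residual degrees of freedom), with Benjamini-Hochberg adjustment over all 573 genes. Calls needed an adjusted p under 0.05 and a log2 difference of at least 1. On simulated data with 200 of 573 genes changed, log2 changes of 1.5, 2 and 3 were called in 100% of genes, changes of 0.5 in 0%, and unchanged genes in 0 of 373. Changes near the threshold of 1 were not simulated, so these counts follow largely from that threshold and say nothing on calls close to it.

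The rule for named genes took the 15 called genes with the largest differences in each direction and all measured lectin receptors, soluble lectins, Siglecs and cell type markers. It added up to 4 called members in each direction of the other lists, the 6 smallest differences among well measured genes, and the genes called in both organs against the other 7 tissues. Any others are marked or were named after their values were seen (Lamp2). The comparison, the 25 gene lists and 15 marker lists were chosen with earlier results of these data known. Arrays were not treated as paired by title number, and the labels do not say whether they were. The correlations of same-numbered deviations were -0.05, 0.06 and -0.08. These values show no visible shared effect of the number. They cannot tell whether same-numbered arrays of different organs came from the same animal. Alternatives were other scalings, floors, low-level filters and probe set rules, other limma settings, a block for the title number, a median in place of the mean of the other tissues, and leaving out each array.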

Additional observations from a re-analysis of the deposited data

How the results depend on the processing

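The counts of 31 higher and 86 lower genes in liver against spleen stayed within 1.5 times under all 38 alternatives that give them. With the title number as a replicate block they were 31 and 86, and the block changed no call of a named gene. Leaving out each array in turn gave 29 to 32 higher and 84 to 89 lower genes. Quantile normalization gave 44 and 64 and median centring 38 and 73. Of 4755 values of named genes under alternatives, 4688 kept their call or stayed uncalled, 57 lost a call, 9 gained a call and 1 reversed. A change of sign was counted as reversed only for a gene called in either setting. Uncalled genes that changed sign are among the 4688, as Cd209c, at -0.06 as deposited and 0.024 with quantile normalization. The reversed gene, Il10ra, was 0.042 with the probe set highest in liver and spleen, where another probe set is used. Many of the alternatives left out an array of a tissue other than liver or spleen. Such arrays enter the estimate of spread but not the liver minus spleen difference, and each of these alternatives again gave 31 and 86. The 4688 unchanged values therefore overstate how far the calls were tested. The counts shared by both organs against the other 7 tissues, 2 higher and 2 lower, rest on few genes. Higher genes numbered 4 with quantile normalization and 4 with the median of the other 7 tissues, and 2 to 3 without each array. Lower genes numbered 6 with quantile normalization, 4 with median centring, 1 with an offset of 16, and 0 with a floor of 64, with the 382 genes of higher level (fewer genes tested) or with the median of the other 7. Without each array they numbered 1 to 3, and 1 without spleen array 1 and 1 without spleen array 3. The cause was not tested. The number of arrays and cross-species signal limit the low levels.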

Other observations

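Human probe sets, which were not designed for mouse transcripts, were read on the same 6 arrays and are described without a test. Of 839, 26 had a difference of at least 1 on the log2 scale without overlap, 5 higher and 21 lower in liver. Ribosomal protein genes made up 14 of the 21, and their 23 human probe sets had a median difference of -1.27, with 19 below 0, against 0.09 over all human probe sets. The RPS3 probe set read 339.9, 356 and 294 in liver and 1897, 2037 and 1733 in spleen, and the RPLP1 probe set 1661, 1372 and 1424 in liver and 3482, 3797 and 3409.7 in spleen. Their groups did not overlap. Several of the 26 had the direction of the mouse gene of the same name, and human probe sets with smaller differences were not compared. TMSB10 gave -4.06, ITGB2 -2.96, LTB -1.13, IGF1 1.67 and SOD1 1.15, where the mouse probe sets gave -3.86, -4.28, -4.85, 2.42 and 1.24. Sizes often differed, as ITGA6 gave -3.45 and RENBP -1.78, where the mouse probe sets gave -1.64 and -0.83. LGALS9, the gene of galectin 9, which has no mouse value in this comparison, was higher in liver by both of its human probe sets, at 1.80 and 1.87. The first read 1766, 1185 and 1498 in liver and 456, 459 and 354 in spleen.

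Arrays of an organ often stood in the same order across the called genes. Among the 31 genes higher in liver, liver array 1 was highest of its group in 19 and liver array 2 lowest in 19. Among the 86 lower genes, spleen array 1 was highest of its group in 49 and spleen array 3 lowest in 44. The organs stayed apart on every array in all 117 genes. Of the 28 called genes with another probe set, the other probe set had the same sign in 26 and a difference of at least 1 the same way in 21.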
